A study of Mus musculus with 56 samples.

Results

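The gastrocnemius, the large calf muscle, was compared between 6 mice of the cessation RA arm and 6 mice of the cessation FA arm, 12 of the 56 expression arrays of the series. Each array was placed in its arm by the sample labels. All mice were female C57BL/6 animals from 1 supplier, picked at random within each treatment group, and neither an age nor a mutant allele is given for any group. RA mice and FA mice alike had breathed 4% mainstream cigarette smoke through the nose for 2 hours a day on 5 days a week over 12 weeks, followed by 12 weeks without smoke. The protocol gives the second 12 weeks as sham exposure for cessation mice in general, and it spells out neither RA nor FA. The letters FA also stand in the labels of the sham air groups and RA stands in none of them, so which handling or air set the arms apart is not known from the sources used here. Levels of 6 mice with 24 weeks of sham air, which were of the same study length, and of the 6 other groups are given for scale. These were 24, 12 and 2 weeks of smoke, 12 and 2 weeks of sham air, and untreated mice at week 0. The labels give no hour of collection and no array date, so neither could be set against the arms.

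Much of what follows concerns the circadian clock, which runs in muscle fibres as in most cells. BMAL1, the product of Arntl, pairs with CLOCK or with its close relative NPAS2 and switches on genes that carry an E-box, among them the period (Per) and cryptochrome (Cry) genes. PER and CRY proteins then shut the activators off, and REV-ERB and ROR receptors close a further loop by acting on Arntl, Npas2 and Clock. In muscle the activator and the period genes peak in opposite parts of the day.

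Levels are given on the scale log2(intensity + 16), with the SD over the 6 mice of an arm (n = 6). Every difference is RA minus FA and carries its SE. A gene passed the test at a Benjamini-Hochberg adjusted p under 0.05 in limma, fitted to 12347 genes in all 9 groups. The labels say nothing of litters or cages, so the p-values measure the spread between these mice alone.

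Both arms were muscle by their markers. The mean of the 12 skeletal muscle genes, which include Ckm, muscle creatine kinase, and Acta1, skeletal actin, lay between 12.98 and 13.09 in RA arrays and between 13 and 13.09 in FA arrays. Array medians of the intensity ran from 62.5 to 75.9 over both arms. Some arrays also carried RNA of another tissue. Glycam1, a gene of lymph node vessels, had intensities of 9802, 9519 and 8788 in RA replicates 1, 4 and 5 and of 6944 in FA replicate 4. In the other 8 arrays of both arms it stayed at or below 258, and over the whole series no array lay between 307 and 6944. Arrays above an intensity of 2000 are called Glycam1 arrays here. They were 3 of 6 in RA, 1 of 6 in FA and 12 of 56 in all, so differences were computed without them as well. Without them 3 RA mice and 5 FA mice remained, among 44 mice in the fit.

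Of the 12347 genes 2 rose and 1 fell in RA muscle relative to FA muscle, 0.0243% of those tested (0.0162% higher, 0.0081% lower). Npas2, the activator of the clock that can stand in for CLOCK, and Crip3, a protein with LIM domains, rose. Hdac9, a class IIa histone deacetylase that represses MEF2 targets in muscle and is known to follow nerve activity, fell. At an unadjusted p under 0.05 there were 512 genes, 4.15% of those tested. The median difference over all genes was 0.00, and 51.8% of genes lay above 0.

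Npas2 (Entrez 18143, mouse chromosome 1) was 8.23, 8.89, 8.55, 7.91, 7.52 and 8.00 in RA replicates 1 to 6, against 7.08, 7.17, 6.98, 6.75, 6.99 and 6.94 in FA replicates 1 to 6. The lowest RA mouse stood above the highest FA mouse, and RA mice spread more widely than FA mice. Its level averaged 8.18 ± 0.49 in RA and 6.99 ± 0.14 in FA, and it rose 2.30-fold, by 1.20 ± 0.20 (95% interval 0.79 to 1.61, adjusted p = 0.0023). The exact two-sided permutation p over the 12 mice was 0.0022, the smallest that 6 against 6 mice can give. Any gene whose arms do not overlap gives this p, and that held for 67 of the 12347 genes. Here and below this p is unadjusted, restates the separation of the arms and is no further support for a gene. The level came from 1 probe set, and a second, dimmer probe set with a mean level of 5.40, under the filter on dim genes at 5.71, differed by 0.05 ± 0.16.

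Hdac9 (Entrez 79221, chromosome 12) was 8.12, 8.36, 8.01, 8.11, 8.37 and 7.57 in RA replicates 1 to 6, against 9.06, 8.56, 9.03, 8.89, 9.17 and 8.78 in FA replicates 1 to 6. Each RA mouse lay below each FA mouse. It averaged 8.09 ± 0.29 in RA and 8.91 ± 0.22 in FA, 1.77-fold lower, with a difference of -0.82 ± 0.12 (95% interval -1.07 to -0.58, adjusted p = 0.00019, exact permutation p = 0.0022). A second probe set of lower level, 6.26 on average, differed by -0.25 ± 0.17.

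Crip3 (Entrez 114570, chromosome 17) was 7.88, 7.54, 8.11, 7.79, 9.07 and 7.55 in RA replicates 1 to 6, against 6.76, 5.87, 6.03, 6.30, 7.07 and 7.31 in FA replicates 1 to 6. The arms stood apart, with RA replicate 5, a Glycam1 array, far above the rest. It rose 2.70-fold, by 1.43 ± 0.27 (95% interval 0.89 to 1.98, adjusted p = 0.013, exact permutation p = 0.0022). Its call was the least steady of the 3. Crip3 no longer passed without RA replicate 3 (1.41, adjusted p = 0.05) or RA replicate 5 (1.22, adjusted p = 0.10). Nor did it pass without FA replicate 2 (1.30, adjusted p = 0.054), FA replicate 3 (1.33, adjusted p = 0.062) or FA replicate 4 (1.38, adjusted p = 0.066). Npas2 and Hdac9 passed in each of these 12 fits with 1 mouse left out.

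The 3 calls rest on the spread shared by 9 groups. With RA and FA fitted alone limma called Eln, elastin (0.72 ± 0.08, adjusted p = 0.018), and Rflnb, a filamin-binding protein (0.46 ± 0.06, adjusted p = 0.043). In that fit Npas2 had an adjusted p of 0.091, Hdac9 of 0.10 and Crip3 of 0.20, at the same differences.

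**Figure D1:**
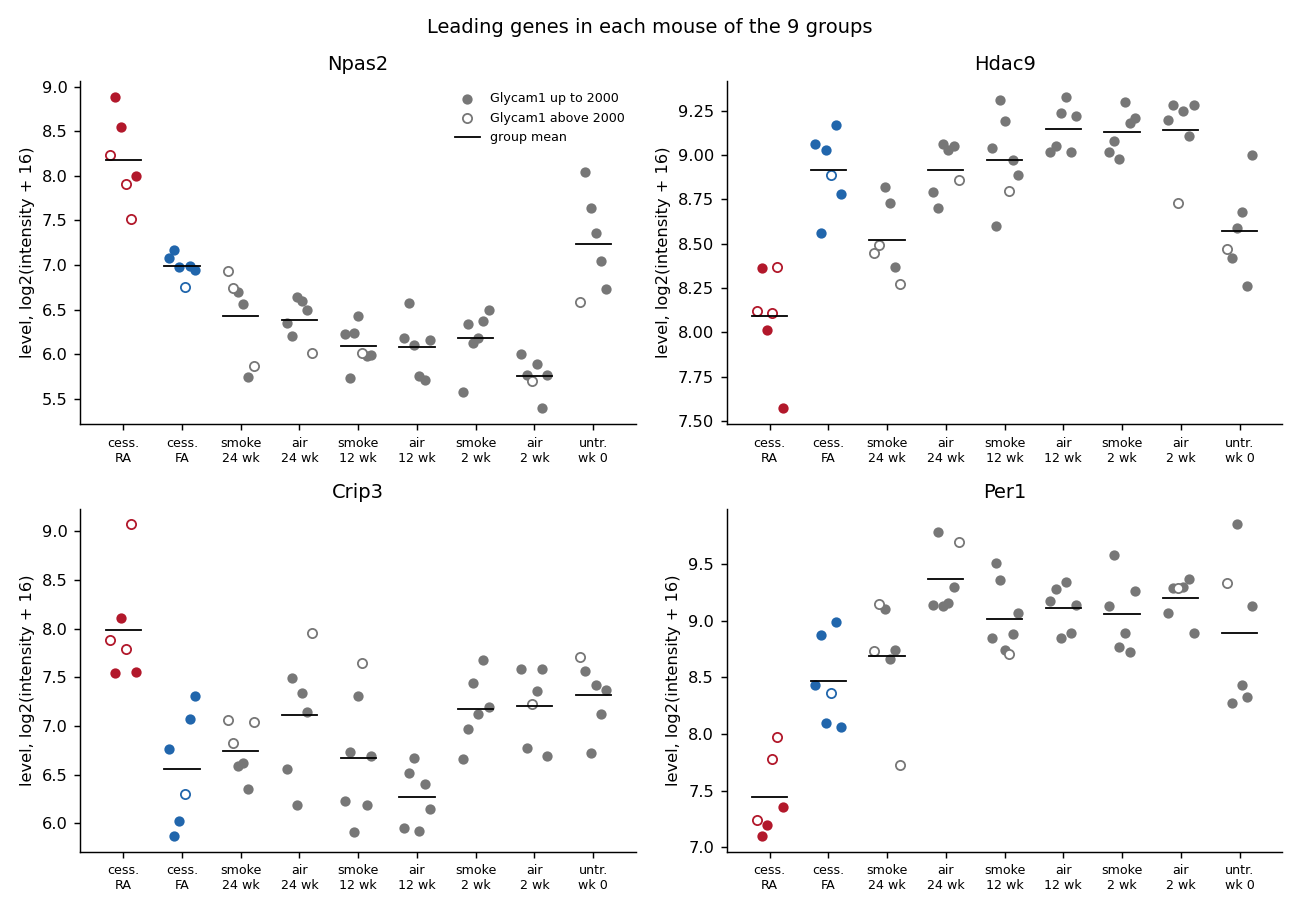
Level of Npas2, Hdac9, Crip3 and Per1, log2(intensity + 16), in each mouse of the 9 groups, with cessation RA (red) left of cessation FA (blue). Bars are group means and open points are Glycam1 arrays. Npas2 and Crip3 have their highest group mean in RA (8.18 and 7.99), Hdac9 and Per1 their lowest (8.09 and 7.44).

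Set beside the other groups, RA lay at 1 end of the order for all 3 genes. Npas2 was highest in RA (8.18 ± 0.49), followed by untreated mice (7.23 ± 0.55), FA (6.99 ± 0.14), 24 weeks of smoke (6.42 ± 0.50) and 24 weeks of sham air (6.38 ± 0.25), with the 4 groups of 2 and 12 weeks between 5.75 and 6.18. Untreated mice reached up to 8.04, above the lowest RA mouse, and their range from 6.59 covered all FA mice. The FA mice, between 6.75 and 7.17, lay above all 6 mice of 24 weeks of sham air, which lay between 6.01 and 6.64.

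Hdac9 was lowest in RA (8.09 ± 0.29), next to 24 weeks of smoke (8.52 ± 0.21) and untreated mice (8.57 ± 0.26), whose lowest mice at 8.27 and 8.26 overlapped RA. FA and 24 weeks of sham air had the same mean of 8.91, with SDs of 0.22 and 0.15. Crip3 was highest in RA (7.99 ± 0.57), and FA (6.56 ± 0.58) was 8th of the 9 groups. Sham air mice at 24 weeks spread from 6.19 to 7.95 for Crip3, a range that overlapped both arms.

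Without the Glycam1 arrays 4 of 12248 genes passed, 0.0327% of those tested (0.0163% higher and 0.0163% lower), and 909 (7.42%) had an unadjusted p under 0.05. In that fit the median difference over all genes was -0.02 and 43.9% of genes lay above 0, the scale for list counts without these arrays. Npas2 rose by 1.45 ± 0.23 (adjusted p = 0.0015) and Hdac9 fell by 0.94 ± 0.15 (adjusted p = 0.0017), so 2 genes passed both with and without these arrays. In the RA Glycam1 arrays Npas2 averaged 7.89, and in the other RA arrays 8.48. Hdac9 averaged 8.20 and 7.98 in the same RA arrays, so by these means both genes lay farther from FA in the arrays with little Glycam1. The 2 sets of RA arrays overlapped, at 7.52 to 8.23 and 8.00 to 8.89 for Npas2 and at 8.11 to 8.37 and 7.57 to 8.36 for Hdac9. The lowest Hdac9 value, 7.57, was that of RA replicate 6. Crip3 had the opposite order of means, 8.25 in the RA Glycam1 arrays and 7.73 in the other RA arrays. It differed by 1.12 ± 0.31 without the Glycam1 arrays and did not pass (adjusted p = 0.24).

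Per1 and Pfkfb2 were the other genes to pass without the Glycam1 arrays. Pfkfb2 makes and degrades fructose 2,6-bisphosphate, an activator of glycolysis, and was outside the rule for naming genes, being picked once its values were known. Its level was 9.51, 9.95, 9.88, 9.39, 9.16 and 10.02 in RA replicates 1 to 6, against 9.51, 9.43, 9.31, 9.44, 9.56 and 9.35 in FA replicates 1 to 6. The 3 RA mice without much Glycam1 all lay above every FA mouse, and the 3 RA Glycam1 arrays lay at or below the highest FA mouse. The difference was 0.22 ± 0.14 with all arrays (adjusted p = 0.96) and 0.52 ± 0.08 without the Glycam1 arrays (adjusted p = 0.0015). Leaving out only the 4 Glycam1 arrays of both arms gave the same 0.52 with an adjusted p of 1, so that call was lost when the Glycam1 arrays of the other groups were kept. Pfkfb2 passed in 2 of 16 other ways of processing, without the Glycam1 arrays and, with all arrays in, with array weights (0.37, adjusted p = 0.047). It differed by 0.02 with the mean of probe sets (adjusted p = 0.97) and by 0.34 with Glycam1 above 2000 as a term (adjusted p = 0.94). With both arms fitted alone and no Glycam1 arrays the adjusted p was 0.23, at 0.52. Its dimmer probe sets, under the filter, differed by -0.06 to -0.03.

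**Figure D2:**
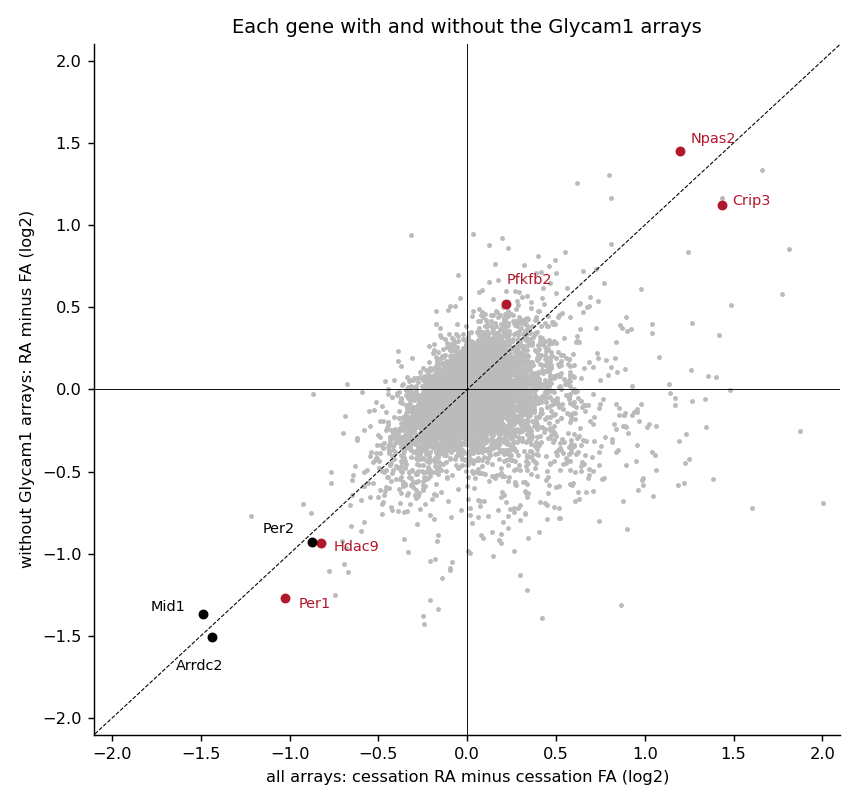
Difference of each gene, RA minus FA on the log2 scale, with all arrays (x axis) and without the Glycam1 arrays (y axis). Genes past the test in either fit are red, named others are black, and the dashed line marks equal differences. Npas2, Hdac9 and Per1 lie farther from 0 without these arrays (1.45, -0.94 and -1.27), while many genes right of 0 on the x axis lie near or below 0 on the y axis.

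Over the 34 clock genes tested, 1 passed (Npas2), and the median difference was -0.11 with all arrays and -0.08 without the Glycam1 arrays. The arms did not overlap for 4 of the 34, 1 of them higher and 3 lower in RA, against 67 of all 12347 genes (0.543%; 0.178% higher, 0.364% lower). Without the Glycam1 arrays they did not overlap for 9 of the 34, against 5.17% of all genes (2.07% higher, 3.09% lower). At an unadjusted p under 0.05 there were 17 of the 34, against 4.15% of all genes. The clock lists hold Npas2 and were chosen with earlier results of these data known, so these shares describe the lists and are no independent test.

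The 4 activators all lay above 0, with a median of 0.28 against 0.00 over all genes. Arntl was 9.78, 10.37, 10.24, 9.58, 9.63 and 9.79 in RA replicates 1 to 6, against 9.36, 9.64, 9.52, 9.17, 9.39 and 9.50 in FA replicates 1 to 6. Only RA replicates 4 and 5, both Glycam1 arrays, fell within the FA range. Its difference of 0.47 ± 0.16 did not pass (adjusted p = 0.86), and without the Glycam1 arrays it was 0.65 ± 0.17 with the arms apart (adjusted p = 0.21). RA had the highest mean Arntl of the 9 groups (9.90 ± 0.33), followed by FA (9.43 ± 0.16) and untreated mice (9.39 ± 0.49), and 24 weeks of sham air stood at 8.70 ± 0.35. Clock, the usual partner of BMAL1, differed by 0.09 ± 0.09 (0.20 without the Glycam1 arrays), with 0.13 to 0.49 in its 3 other probe sets. Arntl2, a relative of Arntl, differed by 0.01 ± 0.14 and, without the Glycam1 arrays, by -0.07.

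Among the 8 repressors 6 lay below 0, the median was -0.43, and none passed with all arrays. Per1, a period gene that also answers quickly to glucocorticoids, was 7.24, 7.10, 7.20, 7.78, 7.97 and 7.36 in RA replicates 1 to 6, against 8.43, 8.87, 8.10, 8.36, 8.99 and 8.06 in FA replicates 1 to 6. Every RA mouse lay below every FA mouse, at a difference of -1.03 ± 0.22 (adjusted p = 0.055, exact permutation p = 0.0022). Without the Glycam1 arrays Per1 fell by 1.27 ± 0.25 (adjusted p = 0.036), a call lost at the same difference when only the Glycam1 arrays of both arms were left out (adjusted p = 0.11). Over 16 other ways of processing, its difference ran from -1.27 to -0.86 and passed in 9.

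Per2, the second period gene, was 7.85, 7.35, 7.77, 8.38, 8.04 and 8.21 in RA replicates 1 to 6, against 8.74, 8.14, 8.93, 9.30, 9.36 and 8.37 in FA replicates 1 to 6. FA replicate 2 lay inside the RA range and FA replicate 6 just below the highest RA mouse. The difference was -0.87 ± 0.20 (adjusted p = 0.10) and a second probe set above the filter differed by -0.69 ± 0.19. Per3, the third, differed by -0.36 ± 0.14 (adjusted p = 0.96), with -0.52 to -0.29 in 3 further probe sets above the filter, and by -0.56 without the Glycam1 arrays (adjusted p = 0.077).

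The remaining repressors were less uniform. Ciart, which binds BMAL1 and CLOCK, ran from 6.16 to 7.47 in RA and from 6.40 to 8.35 in FA and differed by -0.58 ± 0.24. Bhlhe41, a repressor that competes for E-boxes, differed by -0.50 ± 0.19 (-0.27 without the Glycam1 arrays), and its relative Bhlhe40 by 0.03 ± 0.08. Cry1 differed by 0.08 ± 0.11 (95% interval -0.14 to 0.30) and Cry2 by -0.13 ± 0.12 (95% interval -0.36 to 0.11), or 0.13 and -0.08 without the Glycam1 arrays. None of these passed, and the intervals of both cryptochromes exclude a difference of the size seen for Per1.

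In the REV-ERB and ROR loop none of 3 tested genes passed. Nr1d1, which encodes REV-ERB alpha, was between 10.40 and 10.78 in RA mice and between 9.76 and 10.66 in FA mice, and its difference was 0.38 ± 0.16. Nr1d2, which encodes REV-ERB beta, differed by -0.10 ± 0.06, and a second, dimmer probe set above the filter by -0.57 ± 0.19. Rora differed by 0.02 ± 0.10, or 0.12 without the Glycam1 arrays, with -0.23 to 0.00 in its other probe sets above the filter.

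Output genes of the clock, a list that counts the repressor Ciart again, were mostly lower, 14 of 20 with a median of -0.17, and none passed. Wee1, a cell cycle kinase driven by the clock, was 8.44, 8.09, 8.24, 8.41, 8.43 and 8.33 in RA replicates 1 to 6, against 8.74, 8.49, 8.92, 8.86, 9.01 and 8.48 in FA replicates 1 to 6. The arms were apart by a narrow gap, and the difference was -0.43 ± 0.10 (adjusted p = 0.10). A second, dimmer Wee1 probe set above the filter differed by -0.14 ± 0.17. Usp2, a rhythmic deubiquitinase, was between 12.36 and 12.47 in RA and between 12.53 and 12.60 in FA, also with no overlap, and differed by -0.15 ± 0.07 (adjusted p = 0.96).

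The PAR bZIP factors, which carry the rhythm to D-box genes, were Hlf (-0.41 ± 0.12), Tef (-0.16 ± 0.07) and Dbp (-0.22 ± 0.14), and Nfil3, which binds the same sites as a repressor, differed by 0.31 ± 0.19. Without the Glycam1 arrays Dbp differed by -0.43 and Nfil3 by 0.56, neither past the test. Dbp did not separate the arms, since RA replicates 4 to 6 at 11.43 to 11.57 lay among the FA mice at 11.16 to 11.62. Noct, a rhythmic phosphatase of NADP cofactors, differed by -0.20 ± 0.11, Tspan4, a tetraspanin, by -0.36 ± 0.14 (-0.57 without the Glycam1 arrays, adjusted p = 0.084), and Coq10b, a coenzyme Q binding protein, by -0.26 ± 0.10. Csnk1d, a kinase that marks PER proteins, differed by 0.00 ± 0.11, or -0.12 without the Glycam1 arrays.

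**Figure D3:**
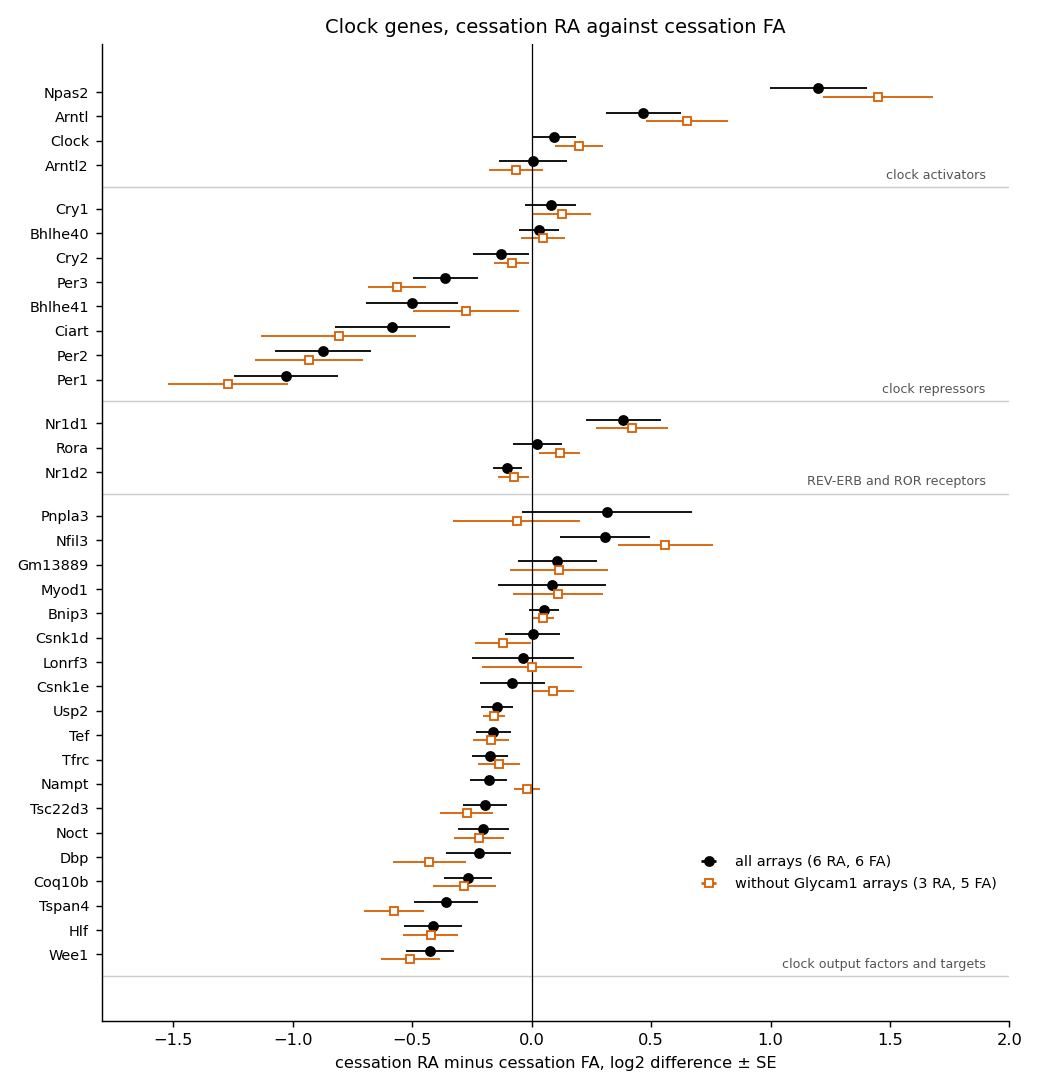
Differences of the 34 clock genes, RA minus FA on the log2 scale with SE, with all arrays (black) and without the Glycam1 arrays (orange), by role from activators at the top to output genes at the bottom. The activators Npas2 and Arntl lie right of 0 (1.20 and 0.47), the period genes left of 0 (-1.03, -0.87 and -0.36), and both cryptochromes near 0.

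Promoter windows of the genes on which these results turn are printed to show which clock motifs they hold. For a gene with several starts, the window with the most matches is printed. Windows are from RefSeq on GRCm38.p6, 250 bases before to 50 after a start, on the gene's strand. The motifs searched on both strands were the E-box CACGTG, the D-box TTATGNAA and the REV-ERB and ROR element TAGGTCA. Of 32851 windows of 300 bases in the table, 7.15% held the E-box, 3.38% the D-box and 2.61% the REV-ERB and ROR element. Capitals mark matches, and the 3 motifs did not overlap each other in these windows. The windows are Npas2 at chr1:39194022-39194321 (plus strand), Hdac9 at chr12:34528840-34529139 (minus strand, the second of 2 starts), Arntl at chr7:113207261-113207560 (plus strand, the second of 2) and Per1 at chr11:69098699-69098998 (plus strand, the first of 2).
Npas2: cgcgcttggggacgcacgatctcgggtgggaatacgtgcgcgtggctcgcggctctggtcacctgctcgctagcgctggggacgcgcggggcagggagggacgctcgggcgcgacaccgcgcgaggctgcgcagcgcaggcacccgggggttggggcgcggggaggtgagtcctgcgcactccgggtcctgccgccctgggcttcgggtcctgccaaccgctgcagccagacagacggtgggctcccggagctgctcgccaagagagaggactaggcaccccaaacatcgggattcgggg
Hdac9: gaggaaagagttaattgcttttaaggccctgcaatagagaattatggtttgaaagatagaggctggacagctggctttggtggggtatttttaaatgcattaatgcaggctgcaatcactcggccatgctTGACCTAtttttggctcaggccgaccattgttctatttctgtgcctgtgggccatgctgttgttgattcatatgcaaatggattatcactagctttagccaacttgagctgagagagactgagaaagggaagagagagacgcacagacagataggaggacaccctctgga
Arntl: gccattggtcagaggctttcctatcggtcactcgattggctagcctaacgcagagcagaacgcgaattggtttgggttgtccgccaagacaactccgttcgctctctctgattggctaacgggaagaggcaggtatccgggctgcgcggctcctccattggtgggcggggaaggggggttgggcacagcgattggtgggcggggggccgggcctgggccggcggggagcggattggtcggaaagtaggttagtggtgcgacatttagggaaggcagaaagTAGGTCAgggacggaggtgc
Per1: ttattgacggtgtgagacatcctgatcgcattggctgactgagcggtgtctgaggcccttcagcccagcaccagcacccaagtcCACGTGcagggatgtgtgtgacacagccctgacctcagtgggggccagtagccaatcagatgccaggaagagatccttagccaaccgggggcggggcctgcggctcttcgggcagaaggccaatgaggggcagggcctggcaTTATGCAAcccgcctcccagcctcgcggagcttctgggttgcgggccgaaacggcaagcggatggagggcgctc

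The Npas2 window held none of the 3 motifs. The Hdac9 and Arntl windows each held 1 REV-ERB and ROR element, on the minus strand as read for Hdac9, and the Per1 window held an E-box and a D-box. The other listed start of each of Hdac9, Arntl and Per1 held none. Of the 37 genes looked up (the 34 clock genes, Hdac9, Crip3 and Pfkfb2), 30 had a window, of which 10 held an E-box, 4 a D-box and 3 a REV-ERB and ROR element. Crip3 and Per2 were not among the 30. A gene counted if any of its starts held the motif, so these counts are not on the scale of the shares of single windows. A match describes letters in a window and shows no binding.

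Hdac9 is in the list of class IIa deacetylases and genes of the nerve-muscle synapse. Of 22 tested genes of that list 1 passed, Hdac9 itself, 18 lay below 0 and the median was -0.09, or -0.01 without the Glycam1 arrays. Myog, the myogenin gene, was 8.02, 8.99, 8.48, 8.03, 8.84 and 9.03 in RA replicates 1 to 6, against 9.43, 9.25, 9.69, 8.66, 9.29 and 8.86 in FA replicates 1 to 6. RA replicates 2, 5 and 6 reached into the FA range, and the difference of -0.63 ± 0.27 did not pass (adjusted p = 0.96). Colq, the collagen tail that anchors acetylcholinesterase at the synapse, differed by 0.25 ± 0.15. Of 10 myogenic factors 9 lay below 0 with a median of -0.11 (-0.02 without the Glycam1 arrays). Myh3, the embryonic myosin, differed by -0.62 ± 0.23 and by -0.30 without those arrays.

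Glucocorticoid response genes were considered because several of them are rhythmic. Of 21 tested 17 lay below 0 and none passed, with a median of -0.09. The median was -0.15 without the Glycam1 arrays, where Per1, a member, passed. Arrdc2, an arrestin-like gene, was 7.27, 7.64, 7.75, 8.31, 8.08 and 8.24 in RA replicates 1 to 6, against 9.15, 9.79, 9.01, 9.02, 10.26 and 8.69 in FA replicates 1 to 6. All RA mice lay below all FA mice, and the difference of -1.44 ± 0.39 did not pass (adjusted p = 0.32). Its SD was 0.40 in RA and 0.59 in FA, and up to 1.03 in the other groups. In 24 weeks of sham air Arrdc2 lay between 9.47 and 11.41. Tsc22d3, a glucocorticoid-induced leucine zipper, differed by -0.20 ± 0.09 and Mt2, a metallothionein, by -0.60 ± 0.25. Cdkn1a, a cell cycle inhibitor, differed by 0.49 ± 0.20, or 0.79 without the Glycam1 arrays with the arms apart (adjusted p = 0.24).

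With all arrays, none of the genes of muscle wasting, smoke response and fuel use named in this paragraph separated the arms. Trim63 and Fbxo32, the ubiquitin ligases of atrophy, differed by 0.02 ± 0.15 (95% interval -0.27 to 0.32) and 0.15 ± 0.22 (95% interval -0.28 to 0.59). These were 0.07 and 0.33 without the Glycam1 arrays, neither past the test. None of the 18 genes of that list passed. Cyp1a1, which the dioxin receptor switches on in smoke, averaged 7.35 in RA and 7.47 in FA, a difference of -0.13 ± 0.25, or 0.01 without the Glycam1 arrays. Among 11 tested NRF2 targets none passed, and Srxn1, an antioxidant reductase, had the lowest p. Srxn1 differed by 0.42 ± 0.18, and by 0.72 without the Glycam1 arrays, where the arms stood apart (adjusted p = 0.053). The arms also stood apart in that fit for the NRF2 target Txnrd1, a thioredoxin reductase, and for Cd36, a fatty acid transporter, neither past the test. With all arrays, other Srxn1 probe sets above the filter differed by 0.39 ± 0.20, 0.06 ± 0.27 and -0.10 ± 0.24. Txnrd1 differed by 0.09 ± 0.07 with all arrays, and by -0.08 ± 0.25 and -0.10 ± 0.22 in dimmer probe sets above the filter. Pdk4, the kinase that turns off pyruvate dehydrogenase, differed by 0.01 ± 0.14, or 0.12 without the Glycam1 arrays. The 29 genes of fatty acid oxidation had a median of 0.03 (0.11 without the Glycam1 arrays) and the 40 of the respiratory chain of -0.01. Fast fibre genes differed by -0.06 to 0.02, and Myh4, the main fast myosin of this muscle, averaged 13.7 in both arms. Of 17 slow fibre genes 16 lay below 0 with a median of -0.06, which was 0.06 without the Glycam1 arrays.

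None of the vessel and collagen genes named in this paragraph passed. With all arrays, 1 of the 20 endothelial genes and 1 of the 13 collagens set the arms apart, against 0.543% of all genes. Aplnr, the apelin receptor of endothelium, was 11.03, 11.11, 11.01, 11.11, 10.65 and 10.83 in RA replicates 1 to 6, against 10.37, 10.20, 10.55, 10.50, 10.14 and 10.59 in FA replicates 1 to 6. The arms did not overlap, and the difference was 0.56 ± 0.19 (adjusted p = 0.86). A second, dimmer Aplnr probe set differed by 0.57 ± 0.16. Flt1, a VEGF receptor, differed by -0.39 ± 0.14, with -0.38 to -0.14 in its other probe sets. Tek, the angiopoietin receptor, differed by 0.19 ± 0.10. Over the 20 endothelial genes the median was 0.05 and the list mean ran from 8.80 to 9.03 in RA arrays and from 8.70 to 8.88 in FA arrays. Col4a1, a chain of basement membrane collagen, ran from 11.29 to 11.64 in RA and from 10.67 to 11.16 in FA, with a difference of 0.45 ± 0.14 (adjusted p = 0.69). A second Col4a1 probe set above the filter differed by 0.30 ± 0.15. The partner chain Col4a2 differed by 0.40 ± 0.14 and Col15a1 by 0.62 ± 0.22 (0.33 without the Glycam1 arrays). The 13 collagens had a median of 0.13, or -0.03 without the Glycam1 arrays, and none passed.

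Cish, a STAT5-induced inhibitor of cytokine signals, was 10.50, 8.22, 9.73, 10.06, 8.57 and 10.05 in RA replicates 1 to 6, against 9.03, 7.80, 8.53, 7.65, 7.77 and 7.71 in FA replicates 1 to 6. RA replicates 2 and 5 lay within the FA range. The difference was 1.44 ± 0.52 (adjusted p = 0.92), in a gene whose mice ran from 6.89 to 11.13 in the untreated group alone. Chac1, a glutathione-degrading enzyme of the unfolded protein response, differed by 0.69 ± 0.35. Of the 26 tested genes of that response 21 lay above 0 and none passed.

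Genes of lymphocytes and of lymph node vessels gave the widest list medians (1.36 and 0.87), and they and the genes of fat were high in the Glycam1 arrays. All 12 tested lymphocyte genes lay above 0 with a median of 1.36, and none passed. Ms4a1, a B cell surface protein, was 10.89, 10.87 and 10.55 in the RA Glycam1 arrays and 5.32, 5.09 and 4.97 in the other RA arrays. It was 9.42 in FA replicate 4 and between 4.78 and 6.31 in the other FA arrays. The lymphocyte list mean was 9.54 to 9.75 in the RA Glycam1 arrays, 8.43 in FA replicate 4, and otherwise 5.01 to 5.22 in RA and 4.92 to 6.45 in FA. Without the Glycam1 arrays 1 of the 12 genes was bright enough to be tested, at -0.55.

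Adipocyte genes had 8 of 9 above 0 and a median of 0.34, which was -0.45 with all 9 below 0 once the Glycam1 arrays were out. Adipoq, the fat hormone adiponectin, differed by 0.34 ± 0.53 with all arrays and by -0.65 without the Glycam1 arrays. Cell cycle genes had a median of 0.21 and of -0.14 without those arrays, and their list mean was 7.92 to 8.31 in the RA Glycam1 arrays against 7.27 to 7.37 in the other RA arrays. In bulk muscle more cells of a type and more RNA per cell cannot be told apart.

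**Figure D4:**
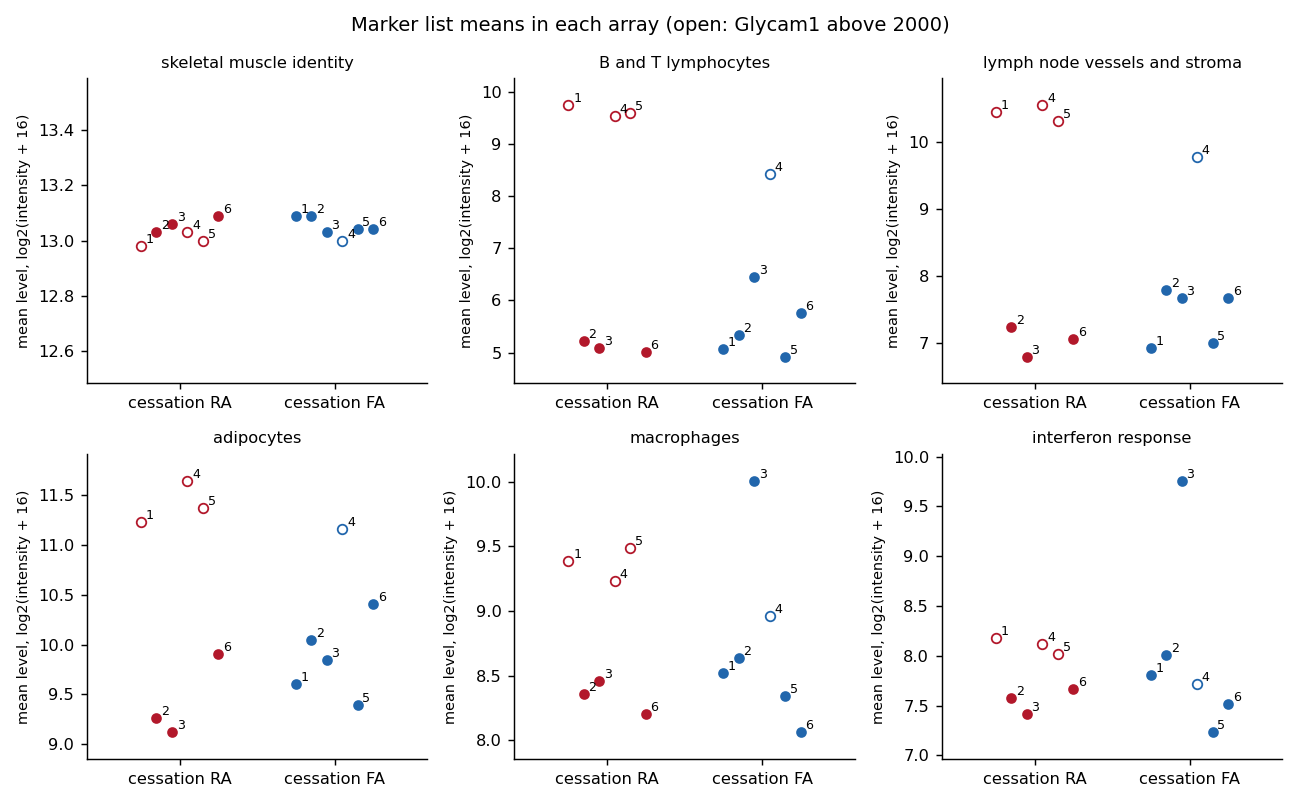
Mean level of 6 marker lists in each array, log2(intensity + 16), with RA left of FA, replicate numbers beside the points and open points for Glycam1 arrays. Muscle identity is level at about 13, while lymphocyte, lymph node and adipocyte means are high in the open points, and FA replicate 3 leads the macrophage and interferon lists (10.01 and 9.76).

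FA replicate 3 stood apart in another way. Its mean over 19 interferon response genes was 9.76, against at most 8.01 in the other FA arrays and 8.18 in RA arrays, and its macrophage mean was 10.01. Cxcl10, an interferon-induced chemokine, was 11.28 in FA replicate 3 and at most 6.75 in the other FA mice, with RA mice between 6.03 and 6.90. The 19 genes had a median of -0.18 with 14 of them below 0, and without the Glycam1 arrays, a fit that keeps this mouse, a median of -0.55 with 18 below 0. None passed in either. Npas2 and Hdac9 passed without this mouse and Crip3 did not, as given above.

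**Figure D5:**
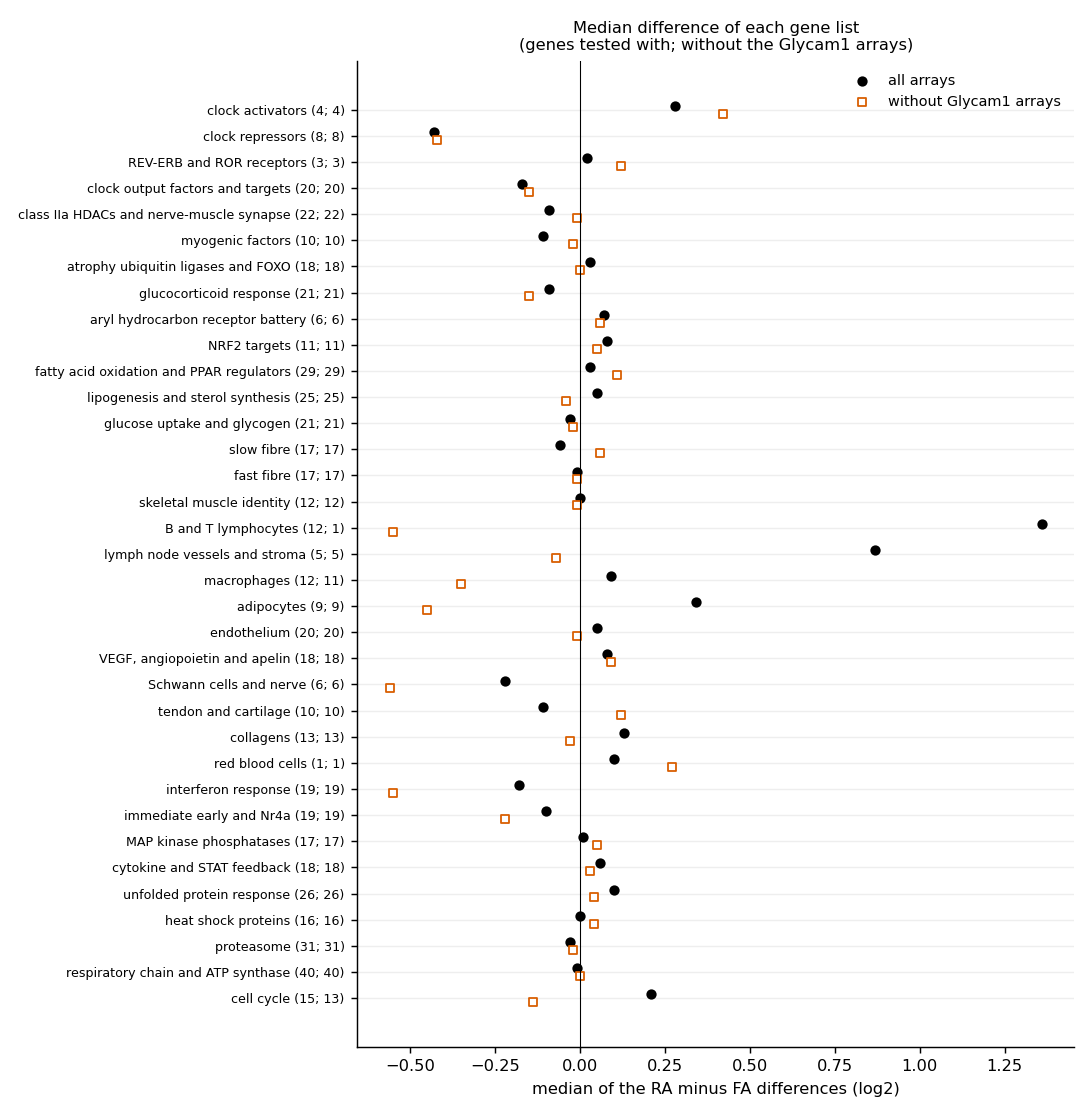
Median difference, RA minus FA on the log2 scale, of each of the 35 gene lists with all arrays (black) and without the Glycam1 arrays (orange), with the number of genes tested in each fit in brackets. The clock repressors (-0.43 and -0.42) and activators (0.28 and 0.42) keep their side of 0. Other lists do so too, among them Schwann cells (-0.22 and -0.56) and interferon response (-0.18 and -0.55). The adipocyte list (0.34 and -0.45) and the lymphocyte list (1.36, and -0.55 for the 1 gene still tested) do not.

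The genes next to the threshold were picked by their p once values were known. Cys1, a protein of the primary cilium, was 6.92, 7.22, 7.31, 7.27, 6.98 and 7.33 in RA replicates 1 to 6, against 8.03, 7.50, 7.74, 7.71, 8.16 and 7.76 in FA replicates 1 to 6. The arms did not overlap, at -0.65 ± 0.14 (adjusted p = 0.055). Mid1, a microtubule-bound ubiquitin ligase, was 5.54, 7.79, 6.14, 7.18, 7.56 and 6.86 in RA replicates 1 to 6, against 8.31, 7.77, 8.42, 8.47, 8.26 and 8.75 in FA replicates 1 to 6. RA replicate 2 lay just above the lowest FA mouse, and the difference was -1.49 ± 0.33 (adjusted p = 0.088).

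Eln, elastin, was 9.30, 9.41, 9.18, 9.38, 9.01 and 9.10 in RA replicates 1 to 6, against 8.29, 8.48, 8.57, 8.56, 8.65 and 8.50 in FA replicates 1 to 6. Both arms were tight and apart, and the difference was 0.72 ± 0.17 in the fit of all groups (adjusted p = 0.14), where mice of 24 weeks of sham air ran from 8.36 to 9.40. Rflnb, between 9.39 and 9.56 in RA and between 8.81 and 9.12 in FA, differed by 0.46 ± 0.11 (adjusted p = 0.10). Rab30, a small GTPase of the Golgi, differed by 0.40 ± 0.09, with the arms apart. Med26, a Mediator subunit, at -0.33 ± 0.08, and Rnf122, a ubiquitin ligase, at -0.44 ± 0.11, were also apart, with RA lower. A dimmer Med26 probe set above the filter differed by -0.02 ± 0.11. Prss55, a serine protease, overlapped between the arms and differed by 0.81 ± 0.21.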

How the data were processed

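The authors deposited 1 intensity per probe set for each array, on a linear scale; per the labels' protocols, RNA was amplified and biotin-labelled with a NuGEN kit, and the sources used here do not give the summarisation or normalization. Of 45037 probe sets, 34945 had 1 gene symbol in the platform annotation, 932 had several and 9160 none. From the deposited intensity, values were floored at -15 (5 of 2522072), 16 was added and log2 was taken, with no further scaling. The probe set of highest mean stood for each of 18193 genes, and genes under the 40th percentile of probe set means (5.71) were left out, which left 12347. The 2 arrays of mouse G8, of 12 weeks of smoke, were averaged, giving 55 mice.

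All 9 groups were fitted together in limma (46 residual degrees of freedom, 48.2 after moderation), with calls at a Benjamini-Hochberg adjusted p under 0.05. The fit without Glycam1 arrays had 35 (37.5). Replicates were numbered in accession order. The arms, the 35 gene lists and the named genes were chosen with earlier results of these data known. Named were Npas2, Hdac9, Crip3, all genes past the test (up to 15 each way), all clock genes, the 3 of lowest p of each list and 13 others. On simulated data of 12347 genes for RA against FA, the model found 95 of 100 genes changed by 1 and 67 of 100 changed by 0.5, with 9 false calls. The simulated noise was normal and independent, with equal spread of a gene in all groups and no Glycam1 arrays. Many more genes were changed there than passed in the data, so these shares do not carry over to the data. Alternatives are given at the end. Python 3.11.15 (numpy 2.4.6, pandas 2.3.3, matplotlib 3.10.9) and R 4.3.3 (limma 3.58.1, and data.table in version 1.17.8) were used.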

Additional observations from a re-analysis of the deposited data

Results flagged for a closer look

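Within each arm, samples far from the other 5 were sought among 288 sets of 6 values, and in 23 the gap to the nearest sample, as a share of the range, was above Dixon's 95% critical value for 6 samples. Chance gives about 1 in 20.

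FA replicate 4, the Glycam1 array of its arm, was the highest FA array for Ms4a1 (9.42), Cd22 (8.13), Cd79a (7.76), Fcer2a (7.54) and the mean of the lymph node list (9.78). It was also the highest for Cyp1b1 (9.37), Dgat2 (11.52), Fabp4 (13.50) and Stat5a (10.57), and the lowest for Cacng1 (11.12). FA replicate 3 was the highest for Cxcl10 (11.28), Ifit3 (11.25), Mt2 (10.55), Cd163 (9.81) and the mean of the interferon list (9.76), and the lowest for Rora (11.50).

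In other FA mice, Hlf was low in replicate 2 (8.86), S100b high in replicate 1 (7.81) and Col15a1 low in replicate 5 (8.20). In RA, replicate 5 was the highest for Crip3 (9.07) and the lowest for Cox5b (11.89, against 13.04 in the nearest mouse). RA replicate 4 was the lowest for Prg4 (8.21), and RA replicate 6 the highest for Fbxo32 (12.61). Of the genes that passed, Crip3 alone was among the 23, and its value without that mouse is given with its result.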

How the results depend on the processing

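With all arrays, 2 genes were higher and 1 was lower in RA. The count of higher genes was 0 with a 60th percentile filter, which leaves out the dim Npas2 and Crip3, 15 with array weights, and 4 with the lymphocyte mean as a covariate. It was 0 without Glycam1 arrays and both arms fitted alone. In alternatives chosen after seeing the data, it was 1 without only the Glycam1 arrays of both arms and 5 with Glycam1 above 2000 as a term. The count of lower genes was 2 with no filter, 3 with all probe sets, 3 with their mean, 3 with pseudocount 1, 2 with quantile normalization, 2 with robust moderation, 17 with array weights and 0 with both arms fitted alone. It was 4 with the title number as a covariate, 3 with the lymphocyte mean, 4 at an adjusted p under 0.1, 2 without Glycam1 arrays, 0 when the arms were then fitted alone, and 3 with the Glycam1 term. Leaving out 1 mouse at a time gave 1 to 2 higher and 1 to 3 lower genes.

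Without Glycam1 arrays, 2 were higher and 2 lower. These were 0 and 0 with both arms fitted alone, where 897 genes had an unadjusted p under 0.05, and 5 and 4 when 11 arrays were left out by a lymphocyte mean above 9. That limit left out RA replicates 1, 4 and 5 but kept FA replicate 4 (8.43), the Glycam1 array of its arm. With no filter 1 was lower. Leaving out 1 mouse at a time gave 1 to 3 higher and 1 to 2 lower. The cause of these shifts was not tested. Npas2 passed in 13 of 15 alternatives (0.63 to 1.45), Hdac9 in 14 of 16 (-0.94 to -0.54) and Crip3 in 11 of 15 (1.08 to 1.61). The mean of probe sets gave 0.63 for Npas2 and -0.54 for Hdac9, each past. No called gene changed sign. No paired analysis was possible because the labels give the arms no shared replicate numbers. Signal near background limits dim genes, and 6 mice a group limit the precision.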
